A study of Mus musculus with 8 samples.

Results

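Interferon-stimulated genes encode the proteins that cells make against viruses once type I interferon has been sensed. The 35 genes described here are interferon-stimulated genes outside the IFIT, SLFN, MX, OAS, GBP and IRF families, and they were listed by name. Each gene was read from the brightest probe set annotated to it alone, by its mean over all 8 arrays, which left 33 of the 35 genes, out of 18183 genes with such a probe set. Isg15, the ubiquitin-like modifier, and Ifi44 had no probe set annotated to them alone and are not analysed here, apart from the Isg15 promoter.

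The arrays came from bone marrow-derived macrophages (BMDM) of C57Bl/6 mice, grown for 7 days in 15% L929-conditioned medium from marrow kept in liquid nitrogen. Marrow of 2 wild-type (WT) and 2 miR-155 knockout animals (miR-155-/-) was used, and the cells of each animal were divided between 2 treatments. All cells received LPS at 100 ng/ml for 24 h. IL-10 at 20 ng/ml was added 5 min before LPS in 1 of the treatments. This gave WT(LPS), WT(LPS + IL-10), miR-155-/-(LPS) and miR-155-/-(LPS + IL-10), with 2 arrays each and no unstimulated cells. The labels give the WT animals as female and the miR-155-/- animals as male, so genotype and sex cannot be told apart in any comparison of miR-155-/- with WT. The study's general methods for BMDM name female littermates as the source of marrow, which does not match the male label of the miR-155-/- animals. The age of the animals is not in the labels.

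LPS sensed by TLR4 leads macrophages to make interferon-β through the adaptor TRIF and the factor IRF3. Secreted interferon then binds its receptor, and the complex ISGF3, which holds STAT2 and IRF9, enters the nucleus and binds interferon-stimulated response elements in the promoters of such genes. Their products recognise viral RNA, attach ISG15 to proteins, degrade RNA, deplete or alter nucleotides, hold virions at the cell surface, and restrain the response itself. IL-10 is an anti-inflammatory cytokine that signals through STAT3.

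The values are RMA log2 intensities, on which a difference of 1 is a doubling, and all differences below are log2 differences from limma. The medians over all probe sets lay between 3.88 and 3.97 on the 8 arrays. Mir155hg, the host transcript of miR-155, measured 2.73 and 4.02 on the WT arrays with LPS alone, 2.31 and 2.01 on those with added IL-10, 2.14 and 2.19 on the miR-155-/- arrays with LPS alone, and 1.70 and 2.00 on those with added IL-10. It was low on every array, and its WT(LPS + IL-10) arrays overlapped those of miR-155-/-, so it did not check the genotype labels. The 8 macrophage markers measured 8.03 to 13.5, and their median was 12.6 to 12.8 on every array. Of 10 fibroblast and stromal markers, 9 were highest on an array of WT donor 1. The median of the 10 was 7.39 and 7.49 there, against 3.13 to 4.80 on the other 6 arrays. The remaining marker, Lum, ran the other way. With LPS alone it measured 2.63 and 2.77 on the WT arrays and 4.91 and 5.63 on the miR-155-/- arrays. With added IL-10 it was at most 3.21 in WT, against 3.76 and 4.52 in miR-155-/-. Of the 10 markers, 1 passed the test between the genotypes with LPS, and 0 passed in the other comparisons. Of 6 markers of plasmacytoid dendritic cells, the professional interferon producers, Siglech stayed between 3.87 and 4.35. Tcf4 measured 10.2 to 11.5, highest on a WT(LPS + IL-10) array, and Klk1 measured 5.84 to 6.46. The markers Ccr9, Spib and Pacsin1 lay between 1.66 and 3.57. Of 7 neutrophil markers, 6 were measured, and S100a8 and S100a9, which monocytes also make, differed between groups. S100a8 measured 12.1 and 12.0 on the WT arrays with LPS alone, 13.0 and 13.0 on those with added IL-10, 10.8 and 11.0 on the miR-155-/- arrays with LPS alone, and 12.4 and 12.6 on those with added IL-10. Without IL-10 it was lower in the knockout cells (−1.17 ± 0.13, adjusted p = 0.0141) and higher with IL-10 in miR-155-/- (1.59 ± 0.12, adjusted p = 0.00261). S100a9 measured 6.64 and 7.57, 7.34 and 8.29, 3.76 and 4.20, and 3.50 and 3.25 in the same order, and was lower in miR-155-/- than in WT with LPS (−3.12 ± 0.37, adjusted p = 0.0153) and with LPS + IL-10 (−4.44 ± 0.37, adjusted p = 0.0187). Camp lay between 4.99 and 6.30, lower with IL-10 in each donor but not past the test, and the granule genes Mpo, Elane and Ngp lay between 1.58 and 3.05. The medians of the marker lists stayed low on every array for plasmacytoid dendritic cells (3.38 to 3.91), conventional dendritic cells (2.30 to 2.50), T and NK cells (2.31 to 3.34), B cells (2.63 to 3.31) and neutrophils (2.97 to 4.11). The part of these markers in the results was not tested. In such bulk RNA, fewer cells that express a gene and less of its RNA per cell cannot be told apart.

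The promoter windows of these genes were searched for the core of the interferon-stimulated response element, because it is the letters that ISGF3 reads. RefSeq windows (GRCm38.p6, 250 bases before to 50 after the gene start) were available for 28 of the 35 genes. The core searched was GAAANNGAAA, or TTTCNNTTTC on the other strand, with overlapping matches counted. It stood in the windows of 9 of the 28 genes (32.1%), against 1079 of 27025 genes in the whole table (3.99%). These letters are a description of the window, not a site of binding. In the 30-base stretches below, written 5′ to 3′ along the gene's own strand, capitals mark the core. The first 3 belong to genes whose brightest probe set passed the test in at least 1 comparison, and Isg15 is the unmeasured modifier. The last 3 belong to genes whose brightest probe set did not pass, though 2 other probe sets of Rsad2 did.
Ifih1 (chr2:62646206-62646235, minus strand): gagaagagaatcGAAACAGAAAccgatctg
Ddx58 (chr4:40239804-40239833, minus strand): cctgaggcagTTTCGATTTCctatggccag
Trim21 (chr7:102565447-102565476, minus strand): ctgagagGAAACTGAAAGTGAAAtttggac
Isg15 (chr4:156200871-156200900, minus strand): gtagGAAAAGGAAACCGAAACAGAAAatag
Bst2 (chr8:71537580-71537609, minus strand): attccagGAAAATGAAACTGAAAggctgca
Ifitm3 (chr7:141010714-141010743, minus strand): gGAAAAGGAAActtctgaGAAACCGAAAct
Rsad2 (chr12:26456553-26456582, minus strand): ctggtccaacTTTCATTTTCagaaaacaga
Isg15 held 3 overlapping cores in a row, starting 78 bases before the gene start, and Trim21 and Bst2 held 2 overlapping ones. Measured genes with a window were split by whether the brightest probe set passed the test in at least 1 comparison. The core stood in 3 of the 12 that passed and in 5 of the 14 that did not. The miRNA that the knockout animals lack is read from chr16:84714143-84714165 on the plus strand, and its seed, bases 2 to 8, is in capitals.
miR-155-5p: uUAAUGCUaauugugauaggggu

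As a group, these genes were lowest with IL-10 in WT and highest without IL-10 in miR-155-/-. Their median over the 33 genes was 9.92 and 10.33 on the WT arrays with LPS alone, 9.30 and 9.62 on those with added IL-10, 11.36 and 11.00 on the miR-155-/- arrays with LPS alone, and 10.21 and 10.08 on those with added IL-10. The miR-155-/-(LPS) mean was the highest of the 4 group means for 33 of 33 genes, and the WT(LPS + IL-10) mean was the lowest for 32, the exception being Ifitm3. Both miR-155-/-(LPS) arrays lay above the other 6 arrays for 32 of 33 genes, the exception being Trim25, against 10.9% of all 45014 probe sets and 18.5% of the 15434 whose mean was 6 or more (bright probe sets). Both WT(LPS + IL-10) arrays lay below the other 6 for 27 genes, against 6.69% of all probe sets and 10.7% of bright ones, and the exceptions were Eif2ak2, Parp12, Dtx3l, Trim30a, Ifitm3 and Adar.

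**Figure D1:**
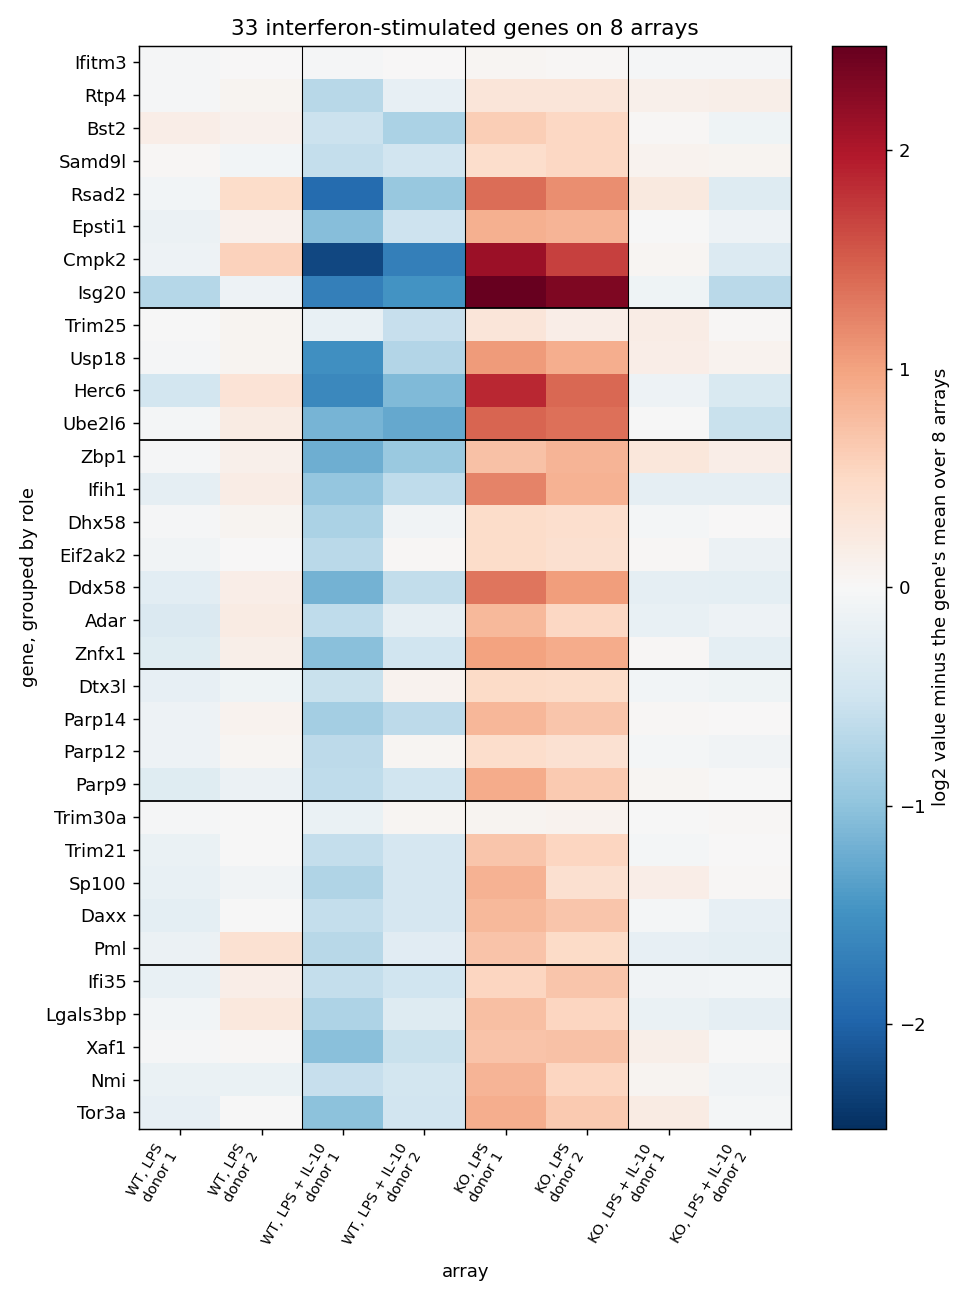
Heat map of the 33 genes (rows, grouped by role) on the 8 arrays (columns); colour gives the log2 value minus the gene's mean over the 8 arrays, red above and blue below. The miR-155-/-(LPS) columns (KO, LPS) are red and the WT(LPS + IL-10) columns mostly blue, while Ifitm3 and the brightest Trim30a probe set are nearly white throughout.

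IL-10 in WT cells went with lower values of all 33 genes, but none passed an adjusted p under 0.05. The differences, WT(LPS + IL-10) minus WT(LPS), ran from −2.19 to −0.00 with a median of −0.59 (1.51-fold lower), against a median of 0 over all probe sets. The number called lower was 0 of 33 (0.0222% of all probe sets, 0.0648% of bright ones), and 27 of 33 were lower at an unadjusted p under 0.05 (4.58% of all, 5.9% of bright ones). In 27 genes the groups did not overlap (16.7% of all, 22.2% of bright ones). The smallest adjusted p was 0.0604, for Cmpk2. With an intensity trend and robust variance in limma 8 genes were called (0.269% of all probe sets), and 14 were called when only the bright probe sets were tested (1.15% of those).

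In miR-155-/-(LPS) against WT(LPS), 8 of 33 genes were higher at an adjusted p under 0.05 (0.951% of all probe sets, 1.64% of bright ones) and 25 did not pass. They were Isg20, Cmpk2, Herc6, Ube2l6, Parp9, Parp14, Nmi and Daxx. The differences ran from 0.04 to 2.80 with a median of 0.75 (1.68-fold higher), against 0.02 over all probe sets. At an unadjusted p under 0.05, 25 genes were higher (7.8% of all, 11.6% of bright ones), and in 33 of 33 genes the groups did not overlap (25.3% of all, 30.5% of bright ones). The count of 8 was smaller in the following fits, for which the share over all probe sets was not taken. It was 0 without either miR-155-/-(LPS) array, 1 without either WT(LPS) array, 2 when either array of miR-155-/-(LPS + IL-10) was left out, 3 without either WT(LPS + IL-10) array, and 4 without the donor block. Without both arrays of WT donor 1, whose stromal markers stood apart, only Isg20 was called and the median was 0.67.

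IL-10 in miR-155-/- cells lowered 14 of 33 genes at an adjusted p under 0.05 (1.42% of all probe sets, 2.54% of bright ones), and 19 did not pass. They were the 8 just named and Ifih1, Ddx58, Znfx1, Trim21, Epsti1 and Lgals3bp; both comparisons use the miR-155-/-(LPS) arrays. The differences, miR-155-/-(LPS + IL-10) minus miR-155-/-(LPS), ran from −2.78 to −0.07 with a median of −0.70 (1.62-fold lower), against 0.01 over all probe sets. At an unadjusted p under 0.05, 28 genes were lower (8.4% of all, 13.2% of bright ones), and in 32 the groups did not overlap (23.4% of all, 31.3% of bright ones). For the fits that follow, the share over all probe sets was not taken. The count of 14 was 1 without either miR-155-/-(LPS) array, 2 when either array of miR-155-/-(LPS + IL-10) was left out, 7 without either WT(LPS) array and 5 without the donor block, and it was 17 without both arrays of WT donor 1.

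Between the genotypes with IL-10, 32 of 33 genes were higher in miR-155-/-(LPS + IL-10) than in WT(LPS + IL-10), but 0 were called at an adjusted p under 0.05 (0.0378% of all probe sets, 0.0648% of bright ones). The differences ran from −0.02 to 1.82 with a median of 0.58. At an unadjusted p under 0.05, 24 genes were higher (5.59% of all, 7.6% of bright ones), and in 28 the groups did not overlap (23.2% of all, 29.6% of bright ones). Zbp1 had the smallest adjusted p, 0.0614. With the intensity trend and robust variance 7 genes were called (0.453% of all probe sets).

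**Figure D2:**
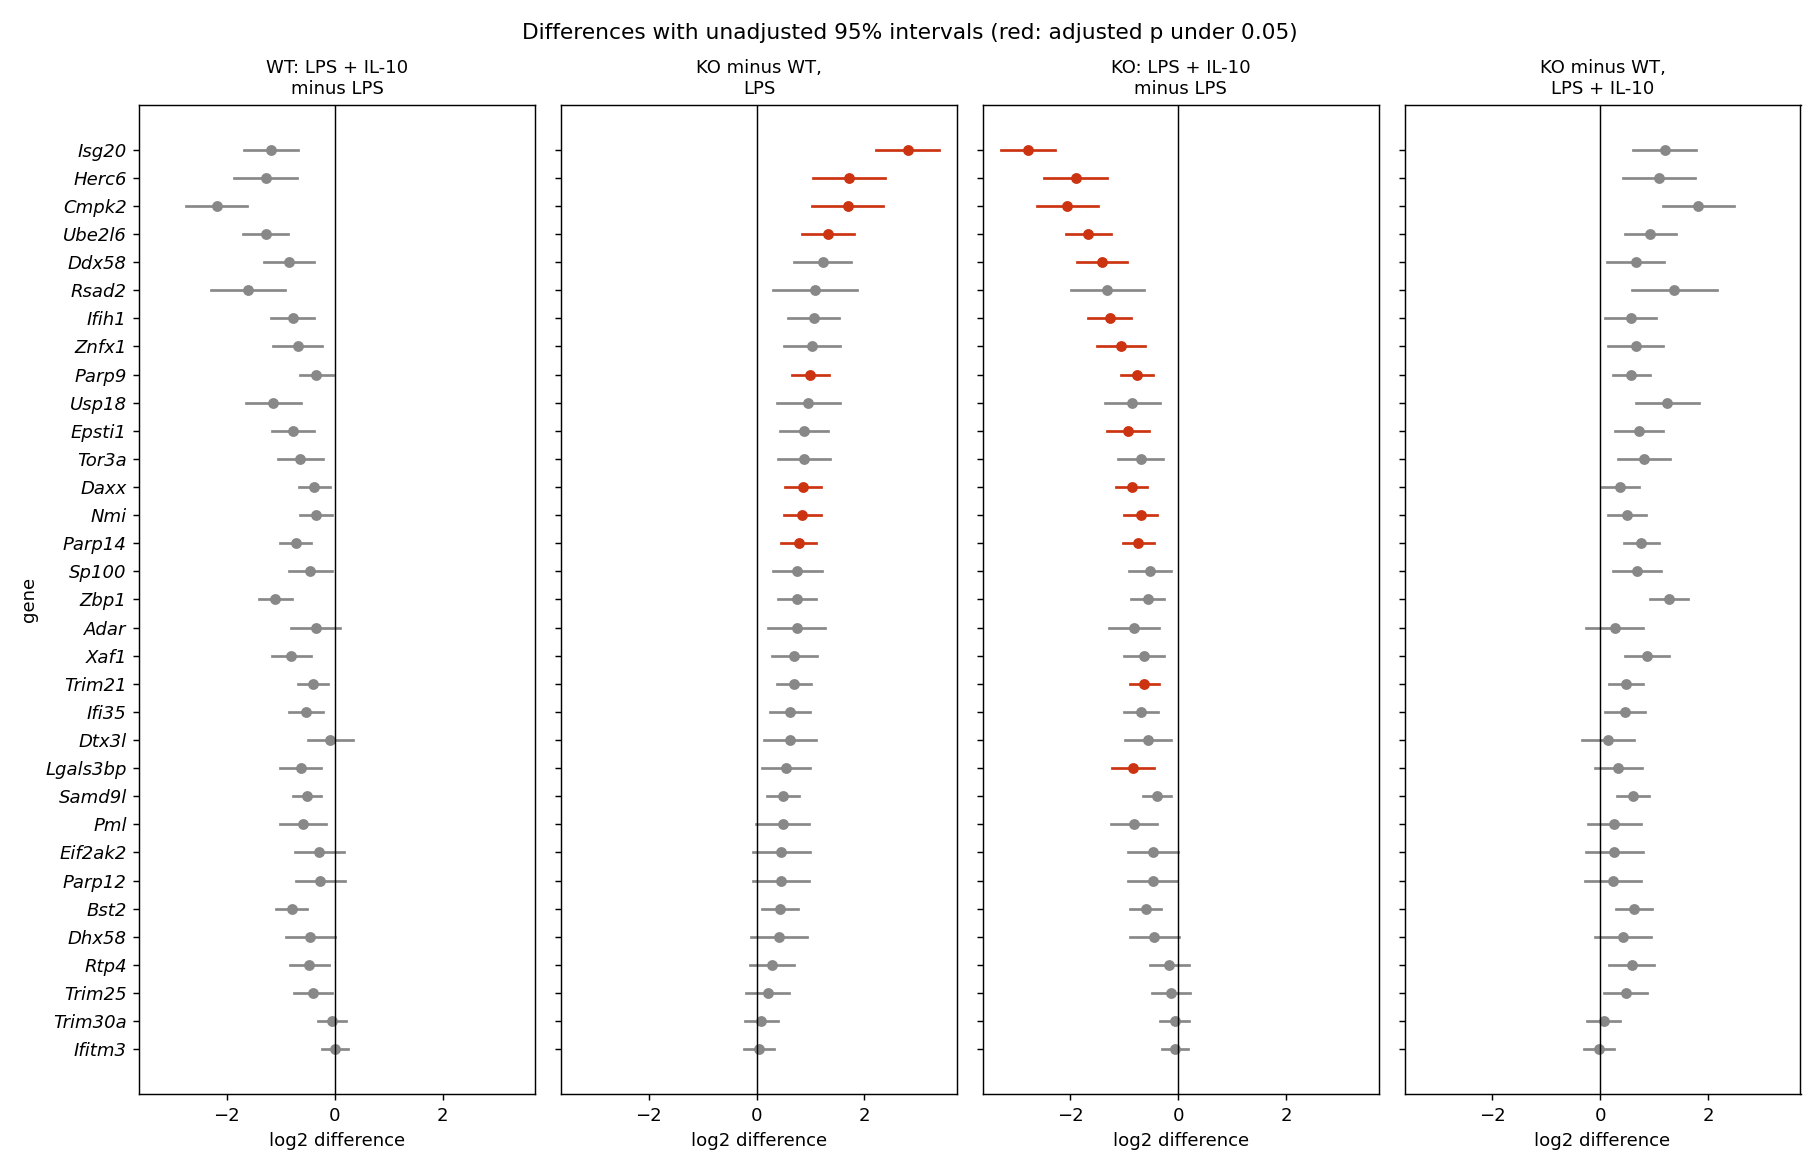
Log2 difference (point) and its unadjusted 95% interval (line) from limma for the 33 genes (rows) in 4 comparisons (panels), with 2 arrays per group; red marks an adjusted p under 0.05. The WT panel and the LPS + IL-10 genotype panel hold no red gene, the LPS genotype panel holds 8 and the miR-155-/- IL-10 panel holds 14.

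Of the ISG15 conjugation genes, 2 of the 4 measured were higher in miR-155-/-(LPS) and lower with IL-10 in miR-155-/-, namely Herc6 and Ube2l6. Ube2l6, the E2 enzyme that carries ISG15, measured 7.13 and 7.37 on the WT arrays with LPS alone, 6.03 and 5.90 on those with added IL-10, 8.61 and 8.53 on the miR-155-/- arrays with LPS alone, and 7.17 and 6.62 on those with added IL-10. The 2 genotypes did not overlap with LPS, and miR-155-/-(LPS + IL-10) lay beside WT(LPS). It was higher by 1.32 ± 0.20 (SE) in miR-155-/-(LPS), or 2.50-fold (adjusted p = 0.0332), and fell by 1.67 ± 0.18 with IL-10 in miR-155-/- (adjusted p = 0.00663). These calls held in 2 and 6 of the 8 fits that left out 1 array. Herc6, the main ligase for ISG15 in mice, measured 8.71 and 9.50 on the WT arrays with LPS alone, 7.58 and 8.07 on those with added IL-10, 11.04 and 10.60 on the miR-155-/- arrays with LPS alone, and 9.05 and 8.79 on those with added IL-10. It was higher by 1.72 ± 0.28 in miR-155-/-(LPS), or 3.29-fold (adjusted p = 0.0417), a call lost in each fit that left out 1 array. With IL-10 in miR-155-/- it fell by 1.90 ± 0.25 (adjusted p = 0.0136), a call that held in 4 of those 8 fits. Its 3 dimmer probe sets gave differences of 1.63 to 1.72 in miR-155-/-(LPS), each called.

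Usp18, which removes ISG15 and also blocks the interferon receptor, measured 11.28 and 11.39 on the WT arrays with LPS alone, 9.79 and 10.59 on those with added IL-10, 12.37 and 12.21 on the miR-155-/- arrays with LPS alone, and 11.47 and 11.40 on those with added IL-10. Its groups did not overlap in any of the 4 comparisons. The difference was 0.96 ± 0.25 between the genotypes with LPS (adjusted p = 0.141) and −1.14 ± 0.22 with IL-10 in WT (adjusted p = 0.171), and neither passed. Trim25, a ubiquitin ligase that acts on the RNA sensor RIG-I, stayed between 11.11 and 11.97, with a difference of 0.20 ± 0.17 between the genotypes with LPS. Of its dimmer probe sets, 1 gave 0.23 ± 0.20 and the other 0.87 ± 0.19 there, and the latter gave −0.78 ± 0.16 for IL-10 in miR-155-/- (adjusted p = 0.0589), so none passed.

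Among the 7 nucleic acid sensors and their partners, 3 were lower with IL-10 in miR-155-/-, Ifih1, Ddx58 and Znfx1, and none passed in another comparison. Ifih1, which encodes the RNA sensor MDA5, measured 9.92 and 10.33 on the WT arrays with LPS alone, 9.18 and 9.51 on those with added IL-10, 11.36 and 11.00 on the miR-155-/- arrays with LPS alone, and 9.91 and 9.91 on those with added IL-10. Ddx58, which encodes the RNA sensor RIG-I, measured 9.13 and 9.55, 8.21 and 8.77, 10.72 and 10.41, and 9.16 and 9.15 in the same order. Both genes were highest on the miR-155-/-(LPS) arrays, and with IL-10 the miR-155-/- arrays came to the WT(LPS) level. With IL-10 in miR-155-/-, Ifih1 fell by 1.27 ± 0.17 (adjusted p = 0.0153) and Ddx58 by 1.41 ± 0.19 (adjusted p = 0.0160). Both calls held in 4 of 8 fits that left out 1 array. The genotype differences with LPS, 1.06 ± 0.20 for Ifih1 (adjusted p = 0.0583) and 1.22 ± 0.22 for Ddx58 (adjusted p = 0.0544), did not pass, though a dimmer Ddx58 probe set did (1.04 ± 0.17, adjusted p = 0.0386).

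Znfx1, a helicase that binds viral RNA, measured 8.34 and 8.79 on the WT arrays with LPS alone, 7.60 and 8.15 on those with added IL-10, 9.64 and 9.56 on the miR-155-/- arrays with LPS alone, and 8.68 and 8.40 on those with added IL-10. It fell by 1.06 ± 0.19 with IL-10 in miR-155-/- (adjusted p = 0.0393), a call that held in 2 of 8 fits that left out 1 array. Zbp1, a sensor of Z-form nucleic acid that can start cell death, measured 10.96 and 11.12 on the WT arrays with LPS alone, 9.79 and 10.08 on those with added IL-10, 11.73 and 11.84 on the miR-155-/- arrays with LPS alone, and 11.28 and 11.17 on those with added IL-10. Zbp1 was among the 27 genes with both WT(LPS + IL-10) arrays below the other 6. Both of its miR-155-/-(LPS) arrays lay above the other 6. Its adjusted p was 0.0624 for IL-10 in WT (−1.10 ± 0.13) and 0.0614 between the genotypes with IL-10 (1.28 ± 0.15), so neither passed. The others stayed in narrower ranges: Dhx58, the regulator LGP2, at 8.69 to 9.93, Eif2ak2, the kinase PKR that halts translation, at 8.74 to 9.86, and Adar, which edits adenosine in double-stranded RNA, at 8.04 to 9.48. Their genotype differences with LPS were 0.41 ± 0.22, 0.46 ± 0.22 and 0.74 ± 0.22, and none passed.

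Of the 8 antiviral effectors measured, Isg20 and Cmpk2 were higher in miR-155-/-(LPS), and with Epsti1 they were lower with IL-10 in miR-155-/-. Isg20, an exonuclease that degrades RNA, measured 7.63 and 8.21 on the WT arrays with LPS alone, 6.63 and 6.85 on those with added IL-10, 10.81 and 10.63 on the miR-155-/- arrays with LPS alone, and 8.22 and 7.66 on those with added IL-10. The miR-155-/-(LPS) arrays stood far above all others, and the WT(LPS) and miR-155-/-(LPS + IL-10) arrays overlapped. With IL-10 in miR-155-/- it fell by 2.78 ± 0.21, or 6.88-fold (adjusted p = 0.00265), and this call held in each of the 8 fits that left out 1 array. Between the genotypes with LPS it was higher by 2.80 ± 0.25 in miR-155-/-, or 6.97-fold (adjusted p = 0.00614). That call held in 6 of those 8 and was lost without either miR-155-/-(LPS) array. The IL-10 difference in WT was −1.18 ± 0.21 (adjusted p = 0.163).

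Cmpk2, a mitochondrial nucleotide kinase, and Rsad2, whose product viperin makes a chain-terminating nucleotide from CTP, are neighbouring genes on chromosome 12. Cmpk2 measured 8.57 and 9.26 on the WT arrays with LPS alone, 6.45 and 7.01 on those with added IL-10, 10.81 and 10.40 on the miR-155-/- arrays with LPS alone, and 8.74 and 8.36 on those with added IL-10. It had the widest IL-10 difference of the 33 genes in WT, −2.19 ± 0.24, or 4.56-fold lower, which did not pass (adjusted p = 0.0604). In miR-155-/-(LPS) it was higher by 1.69 ± 0.28 (adjusted p = 0.0417), a call lost in each fit that left out 1 array, and with IL-10 in miR-155-/- it fell by 2.05 ± 0.24 (adjusted p = 0.00996), which held in 4 of 8. Rsad2 measured 11.18 and 11.71 on the WT arrays with LPS alone, 9.35 and 10.33 on those with added IL-10, 12.64 and 12.41 on the miR-155-/- arrays with LPS alone, and 11.50 and 10.93 on those with added IL-10. Its order of groups was that of Cmpk2, with no overlap between genotypes in either medium. The brightest probe set did not pass in any comparison, with −1.61 ± 0.29 for IL-10 in WT (adjusted p = 0.161), 1.08 ± 0.33 between genotypes with LPS (adjusted p = 0.206) and −1.31 ± 0.29 for IL-10 in miR-155-/- (adjusted p = 0.0705). Its 2 dimmer probe sets gave 2.02 ± 0.32 and 2.61 ± 0.41 between genotypes with LPS, and both passed (adjusted p = 0.0368 and 0.0352). For IL-10 in miR-155-/- they gave −2.22 ± 0.28 and −2.87 ± 0.35, and both passed (adjusted p = 0.0119 and 0.0115).

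**Figure D3:**
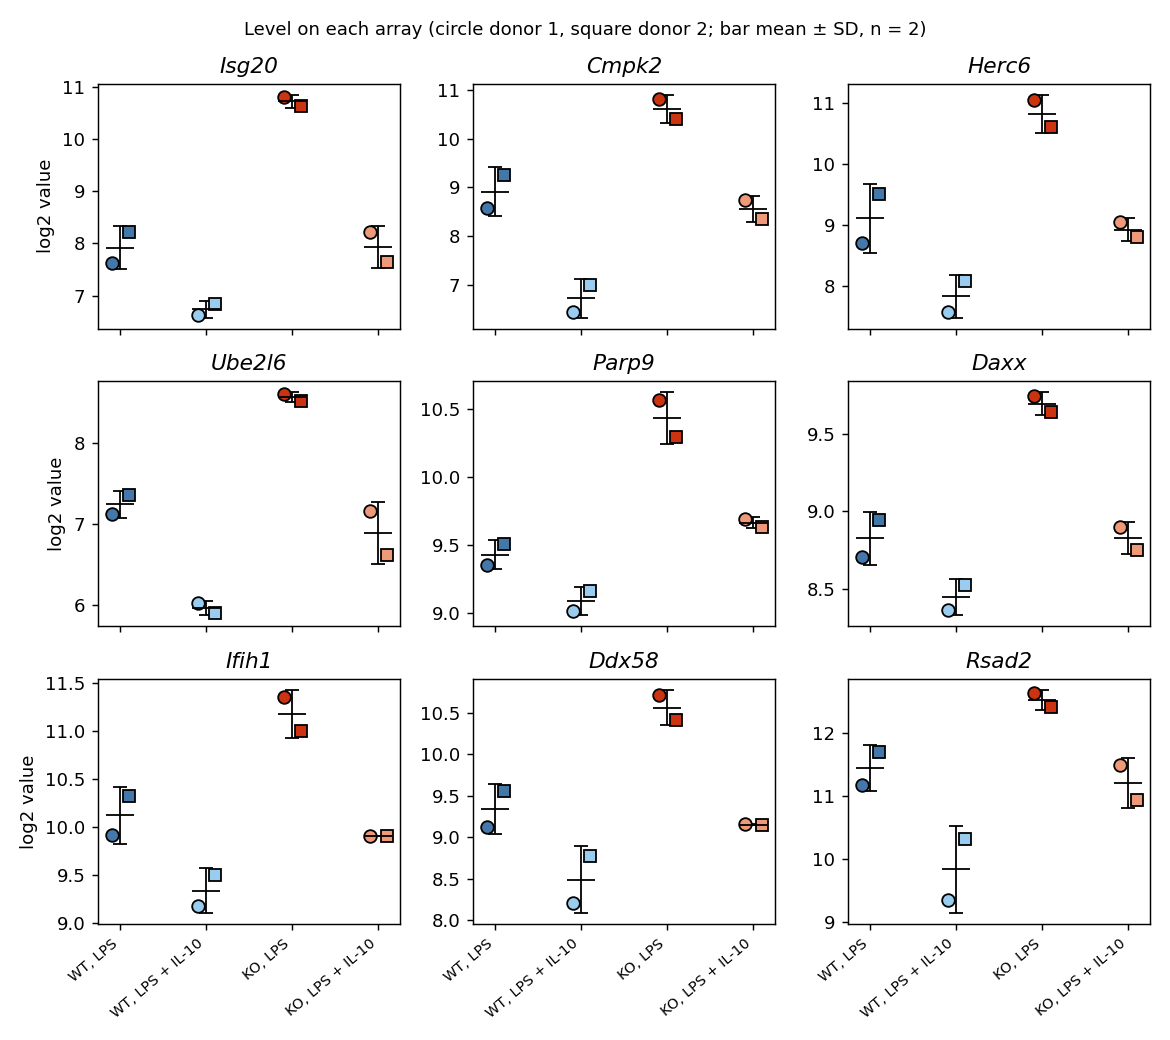
Log2 value (vertical axis, own scale for each gene) of 9 genes on each array in the 4 groups; circles are donor 1, squares donor 2, and bars the mean ± SD of 2 arrays. In each gene the miR-155-/-(LPS) arrays are highest and the WT(LPS + IL-10) arrays lowest, and the miR-155-/-(LPS + IL-10) arrays lie near those of WT(LPS).

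Epsti1, an interferon-induced gene with antiviral activity, measured 9.09 and 9.35 on the WT arrays with LPS alone, 8.18 and 8.72 on those with added IL-10, 10.12 and 10.08 on the miR-155-/- arrays with LPS alone, and 9.23 and 9.11 on those with added IL-10. It fell by 0.93 ± 0.17 with IL-10 in miR-155-/- (adjusted p = 0.0376), a call that held in 2 of 8 fits that left out 1 array. Between genotypes with LPS, Epsti1 differed by 0.88 ± 0.19 (adjusted p = 0.0858), which did not pass. Its dimmer probe sets, at mean levels of 8.48, 4.31 and 2.40, gave 1.01 ± 0.20, 1.78 ± 0.30 and −0.09 ± 0.26 there. Of these, only the one at 4.31 passed (adjusted p = 0.0463). Bst2, or tetherin, which holds budding virions at the cell surface, measured 11.59 and 11.52 on the WT arrays with LPS alone, 10.88 and 10.63 on those with added IL-10, 12.04 and 11.94 on the miR-155-/- arrays with LPS alone, and 11.46 and 11.31 on those with added IL-10. Its WT difference of −0.80 ± 0.12 (adjusted p = 0.113) and its miR-155-/- difference of −0.61 ± 0.12 (adjusted p = 0.0540) did not pass. Samd9l, which restrains translation and poxviruses, lay between 10.80 and 11.89, and Rtp4, a chaperone of receptors that also binds viral RNA, between 11.07 and 12.07. Ifitm3, which blocks fusion of viruses in endosomes, lay between 13.20 and 13.28 on all arrays. It was nearly flat, with differences of −0.00, 0.04, −0.07 and −0.02 in the 4 comparisons, each with an SE of 0.10 or 0.12. Ifitm3 was also the brightest of the 33 genes. Across these genes a brighter mean went with a smaller difference (Spearman rho −0.66 to −0.32 in the 4 comparisons). Whether its high level hid a difference was not tested.

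Of the PARP and DTX3L group, Parp9 and Parp14 passed and Parp12 and Dtx3l did not. Parp14, an ADP-ribosyltransferase, and Parp9, which acts in a complex with the ubiquitin ligase DTX3L, lie on chromosome 16 with Dtx3l between them. Parp9 measured 9.35 and 9.51 on the WT arrays with LPS alone, 9.02 and 9.16 on those with added IL-10, 10.57 and 10.29 on the miR-155-/- arrays with LPS alone, and 9.69 and 9.64 on those with added IL-10. Parp14 measured 11.36 and 11.56, 10.64 and 10.83, 12.30 and 12.18, and 11.51 and 11.49 in the same order. In both genes the 2 miR-155-/-(LPS) arrays were above all others. Parp9 was higher by 1.00 ± 0.15 in miR-155-/-(LPS) (adjusted p = 0.0284), a call that held in 2 of 8 fits that left out 1 array, and fell by 0.77 ± 0.13 with IL-10 in miR-155-/- (adjusted p = 0.0307), which held in none. Parp14 was higher by 0.78 ± 0.14 (adjusted p = 0.0494), which held in none, and fell by 0.74 ± 0.12 (adjusted p = 0.0284), which held in 2. Dtx3l, at 11.39 and 11.49 in WT cells without IL-10 and 11.04 and 11.67 with it, overlapped between the WT groups (−0.08 ± 0.18), and so did Parp12, an RNA-binding member, at 10.75 to 11.85 over all arrays (−0.27 ± 0.19).

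In the group of TRIM and nuclear body genes, Daxx passed in both miR-155-/-(LPS) comparisons and Trim21 in one. Daxx, a histone chaperone of the nuclear bodies that silence incoming viral DNA, measured 8.71 and 8.95 on the WT arrays with LPS alone, 8.37 and 8.53 on those with added IL-10, 9.74 and 9.64 on the miR-155-/- arrays with LPS alone, and 8.90 and 8.75 on those with added IL-10. It was higher by 0.87 ± 0.14 in miR-155-/-(LPS) (adjusted p = 0.0417), lost in each fit that left out 1 array, and fell by 0.86 ± 0.12 with IL-10 in miR-155-/- (adjusted p = 0.0189), which held in 4 of 8. Trim21, an intracellular antibody receptor with ubiquitin ligase activity, measured 10.83 and 10.97, 10.41 and 10.58, 11.67 and 11.52, and 10.94 and 11.00 in the same order. It fell by 0.63 ± 0.12 with IL-10 in miR-155-/- (adjusted p = 0.0439), a call lost in each fit that left out 1 array. Pml, the scaffold of the same nuclear bodies, lay between 7.30 and 8.71, and Sp100, another of their components, between 9.30 and 10.90. Neither passed, with differences of 0.48 ± 0.21 and 0.76 ± 0.19 between genotypes with LPS, though the dimmer Sp100 probe set was lower with IL-10 in miR-155-/- (−0.82 ± 0.14, adjusted p = 0.0349). Trim30a, a TRIM protein that restrains TLR signalling, lay between 11.71 and 11.97, with a genotype difference with LPS of 0.09 ± 0.13. Its dimmer probe set gave 0.52 ± 0.19 there and −0.40 ± 0.17 for IL-10 in miR-155-/-, and neither passed.

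Of the 5 other genes, Nmi passed in both comparisons with miR-155-/-(LPS), Lgals3bp passed for IL-10 in miR-155-/-, and Xaf1, Tor3a and Ifi35 did not pass by their brightest probe sets. Nmi, which binds IFI35 and STAT proteins, measured 9.63 and 9.63 on the WT arrays with LPS alone, 9.23 and 9.35 on those with added IL-10, 10.64 and 10.33 on the miR-155-/- arrays with LPS alone, and 9.85 and 9.71 on those with added IL-10. It was higher by 0.85 ± 0.15 in miR-155-/-(LPS) (adjusted p = 0.0473) and fell by 0.70 ± 0.13 with IL-10 in miR-155-/- (adjusted p = 0.0419), and both calls were lost in each fit that left out 1 array. Lgals3bp, a secreted glycoprotein that binds galectins, measured 11.72 and 12.06, 11.03 and 11.48, 12.54 and 12.33, and 11.63 and 11.57 in the same order. Its miR-155-/- groups did not overlap, and it fell by 0.84 ± 0.16 with IL-10 there (adjusted p = 0.0495), also lost in each such fit.

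Xaf1, a gene linked to cell death, measured 11.18 and 11.24 on the WT arrays with LPS alone, 10.17 and 10.64 on those with added IL-10, 11.90 and 11.92 on the miR-155-/- arrays with LPS alone, and 11.35 and 11.20 on those with added IL-10. Its differences were −0.80 ± 0.15 for IL-10 in WT (adjusted p = 0.175) and 0.70 ± 0.18 between genotypes with LPS (adjusted p = 0.130). Tor3a, a torsin ATPase, measured 9.53 and 9.71, 8.71 and 9.25, 10.62 and 10.37, and 9.93 and 9.67 in the same order. Its groups did not overlap between genotypes in either medium, and the difference with LPS was 0.88 ± 0.20 (adjusted p = 0.105). Its 2 dimmer probe sets passed in both comparisons, with 1.10 ± 0.19 and 1.25 ± 0.19 between genotypes with LPS (adjusted p = 0.0492 and 0.0324) and −0.995 ± 0.17 and −1.03 ± 0.16 for IL-10 in miR-155-/- (adjusted p = 0.0330 and 0.0276). Ifi35, the partner of NMI, lay between 11.40 and 12.67, with differences of 0.62 ± 0.16 between genotypes with LPS and −0.69 ± 0.14 for IL-10 in miR-155-/- that did not pass, while its 2 dimmer probe sets were lower with IL-10 in miR-155-/-, at −1.02 ± 0.16 and −0.78 ± 0.13 (adjusted p = 0.0284 and 0.0302).

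Within donors, IL-10 went with lower values in 33, 30, 33 and 33 of the 33 genes in WT donors 1 and 2 and miR-155-/- donors 1 and 2, and 30 genes were lower in all 4 donors. The median differences were −0.69, −0.60, −0.78 and −0.69. The 2 donors of a genotype also differed from each other in level. Donor 2 was above donor 1 in 31 genes of the WT arrays with LPS alone and in 30 with added IL-10, but in 6 and 7 genes in the miR-155-/- groups. The median gap was widest in WT(LPS + IL-10), at 0.41. These within-donor and between-donor counts and medians were not taken over all probe sets. Whether they are particular to these genes therefore cannot be said.

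The IL-10 difference did not pass a test of difference between the genotypes for any of the 33 genes. At an adjusted p under 0.05, 0 genes were called (0.0333% of all probe sets), and 4 had an unadjusted p under 0.05 (10.4% of all), a share near the background. Of those 4, Isg20 had the widest value, −1.60 ± 0.30 (adjusted p = 0.253), the IL-10 difference being larger in miR-155-/-. Daxx, at −0.49 ± 0.17, and Parp9, at −0.43 ± 0.18, ran the same way, while Zbp1, at 0.54 ± 0.18, ran the other way. The median over the genes was −0.16, and it was 0.06 without the WT(LPS + IL-10) array of donor 2. Across the 33 genes, which are not independent replicates, the IL-10 differences in WT and in miR-155-/-, which share no array, had a Pearson r of 0.75 and a Spearman rho of 0.71.

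**Figure D4:**
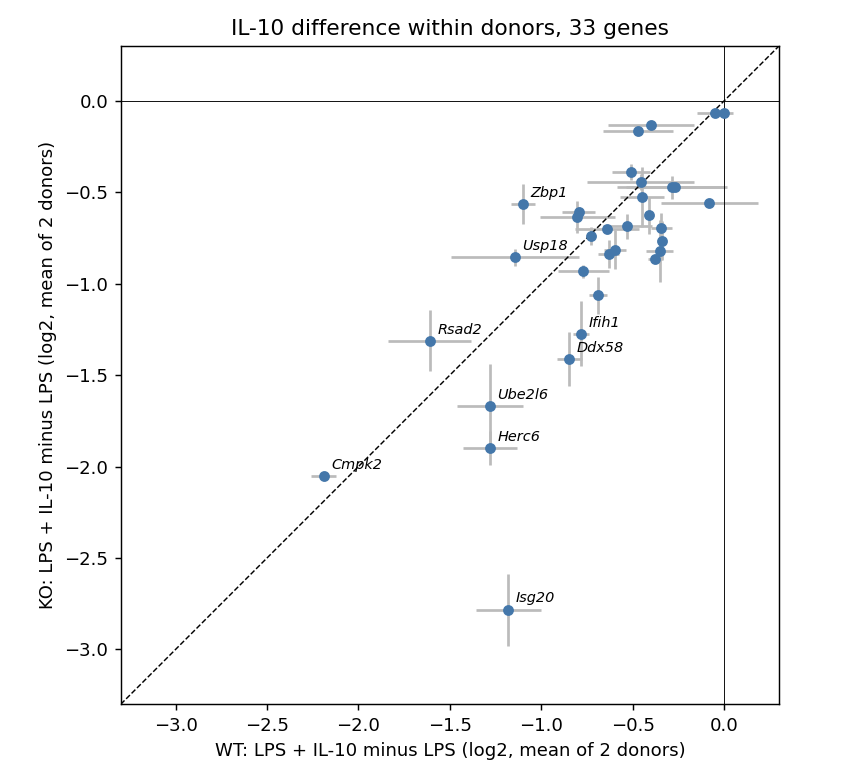
Log2 difference between LPS + IL-10 and LPS within donors for the 33 genes, in WT (horizontal) and miR-155-/- (vertical); points are means of 2 donors, bars reach the values of the 2 donors, and the dashed line marks equal differences. Isg20 lies far below the line and Cmpk2 close to it, and all points are at or below 0 on both axes.

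With IL-10 the miR-155-/- cells had about the level of these genes that WT cells had without it. The mean of miR-155-/-(LPS + IL-10) minus that of WT(LPS) had a median of −0.02 over the 33 genes and a range of −0.36 to 0.23. The arrays of the 2 groups overlapped in 21 genes, and miR-155-/-(LPS + IL-10) lay above in 7 and below in 5. For this pair, neither these counts nor the median was taken over all probe sets. Whether they are particular to these genes therefore cannot be said. This pair of groups differs in both genotype and IL-10, and no test of it was made.

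Several genes could be read from more than 1 probe set. There were 33 dimmer probe sets for 20 genes, and 32 of them had the same sign as the brightest in miR-155-/-(LPS) against WT(LPS), as had 33 for IL-10 in miR-155-/-, 32 for IL-10 in WT and 32 between genotypes with IL-10. Of the dimmer ones, 10 were called higher in miR-155-/-(LPS) and 15 lower with IL-10 in miR-155-/-. Counting any probe set of a gene, 12 of the 33 genes were called higher and 18 lower in these comparisons, against 1.66% and 2.47% of all 18183 genes by the same rule. The brightest probe sets of Ifi35, Trim25 and Tor3a are of a type (_s_at) that may match several transcripts. In 13 of the 20 genes the median difference of the dimmer probe sets was larger than that of the brightest in miR-155-/-(LPS) against WT(LPS).

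**Figure D5:**
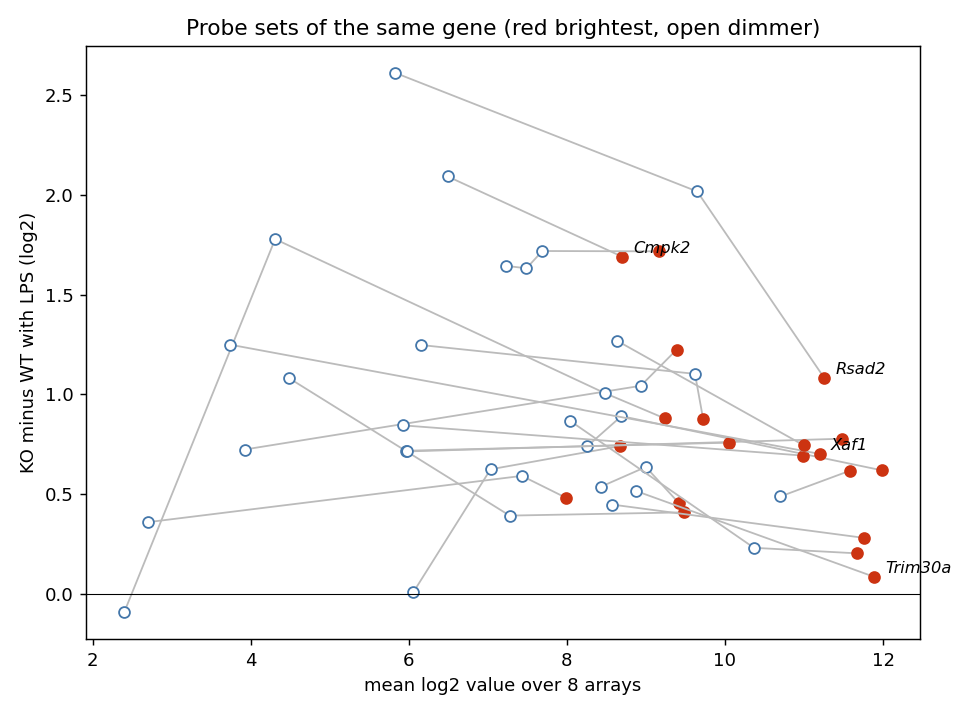
Mean log2 value over the 8 arrays (horizontal) and log2 difference between miR-155-/-(LPS) and WT(LPS) (vertical) of each probe set of the 20 genes with several; lines join probe sets of 1 gene, red marks the brightest and open circles the dimmer ones. For Rsad2 the brightest gives 1.08 and the dimmer ones 2.02 and 2.61.

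Of 26 genes of the interferon pathway that are not among these 35, 22 had a probe set of their own. The ligand probe sets for Ifnb1, Ifna4, Ifna2 and Ifng were low on all arrays, between 1.28 and 3.47, and none passed. The receptor genes Ifnar1, Ifnar2, Ifngr1 and Ifngr2 lay between 8.29 and 10.58, and none passed. Stat2, a subunit of ISGF3, measured 8.62 and 8.75 on the WT arrays with LPS alone, 7.84 and 7.75 on those with added IL-10, 9.97 and 9.59 on the miR-155-/- arrays with LPS alone, and 8.73 and 8.64 on those with added IL-10, the same order of groups as the antiviral genes. It was higher by 1.10 ± 0.16 in miR-155-/-(LPS) (adjusted p = 0.0297) and fell by 1.10 ± 0.14 with IL-10 in miR-155-/- (adjusted p = 0.0130). Irf9, another subunit, differed by 0.28 ± 0.12 and −0.18 ± 0.11 in these comparisons and did not pass. In all, 3 of the 22 were called higher in miR-155-/-(LPS), namely Stat2, Jak2 and Irf7 (0.951% of all probe sets, 1.64% of bright ones). With IL-10 in miR-155-/-, 4 were called lower, those and Tyk2 (1.42% of all, 2.54% of bright ones). None was called in the other 3 comparisons. Irf7 was also lower with IL-10 in WT (−1.63 ± 0.17, not called). Jak2 and Tyk2 were not lower there (0.04 ± 0.15 and 0.17 ± 0.15), so they did not share the order of groups of Stat2.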

How the data were processed

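RNA of 8 BMDM cultures was amplified and labelled with NuGEN kits and hybridised to Affymetrix mouse arrays. The authors deposited log2 intensities after RMA (affy); its background correction, quantile normalization and summary over probes leave 1 value per probe set and can compress bright probe sets. For affy, RMA and the limma of the authors, versions were not given in the sources used. The arrays were used as deposited. Symbols came from the array annotation: of 45101 probe sets, 34958 had 1 symbol, 932 several and 9211 none. After 64 control and 23 sex-linked probe sets were left out, 45014 were tested.

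All 8 arrays were fitted together by lmFit and eBayes of limma 3.58.1 under R 4.3.3, with group means and the donor as a random block (duplicateCorrelation, correlation 0.240), and Benjamini-Hochberg adjustment over all 45014 probe sets. Arrays were paired into donors by genotype and the replicate number of the labels, which name 2 animals per genotype; their deviations from the group means correlated at r = 0.754 in WT and 0.230 in miR-155-/-. Where too few arrays were left to estimate the block correlation (the groups compared alone, or WT donor 1 left out), the value from all 8 arrays was used. The number of arrays limits the precision. The code was tested on simulated data.

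Members, gene lists and roles were chosen with earlier results of these data known. Genes were given with values on every array if called in at least 1 comparison (14), then by the largest average change in the first 2 comparisons up to 20. Other genes were given by range. Plots were drawn with matplotlib 3.10.9.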

Additional observations from a re-analysis of the deposited data

How the results depend on the processing

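Over all alternatives, the median difference kept its sign in the 4 group comparisons and moved by less than the pooled SD of the array medians (0.229); it ran from −0.75 to −0.45 for IL-10 in WT, 0.67 to 0.83 between genotypes with LPS, −0.80 to −0.67 for IL-10 in miR-155-/-, and 0.44 to 0.69 between genotypes with IL-10. The counts of genes called depended on the processing. Among the alternative fits, the share over all probe sets was taken only with the trend and with a mean of at least 6. The counts under the other fits and by the selection, here and above, have no such share beside them. They cannot be set against a background. For IL-10 in WT (0 called), 2 were called with the donor as a fixed replicate block, 1 with centred arrays, 8 with an intensity trend and robust variance, 2 with the mean over a gene's probe sets, 14 among probe sets with a mean of at least 6, and 7 by the selection of the methods (unadjusted p under 0.05, log2 difference over 1). Between genotypes with LPS (8), the counts were 4 with no replicate block, 0 with only the arrays compared, 20 with a mean of at least 6 (5.57% of those probe sets), 20 with the trend (2.09% of all), 14 with the mean over probe sets, 1 without WT donor 1, and 0 to 3 with 1 array left out. For IL-10 in miR-155-/- (14), they were 5 with no block, 26 with a mean of at least 6 (1545 of 15434 probe sets), 22 with the trend (2.70% of all), 23 with the mean over probe sets, 8 by the selection, and 1 to 11 with 1 array left out. Between genotypes with IL-10 (0), they were 4 with a mean of at least 6 (0.985%), 7 with the trend and 6 by the selection, and for the interaction (0), 1 by the selection. The cause was not tested, except that fewer arrays or probe sets entered some of these fits. With the mean over probe sets, the genotype by IL-10 interaction turned to −0.64 for Cmpk2, −0.24 for Rsad2 and −0.17 for Xaf1, and without WT donor 1 to −0.062 for Usp18 and −0.038 for Xaf1. With 1 array left out it crossed 0 for 7 genes, running from −0.15 to 0.42 for Cmpk2, −0.093 to 0.068 for Parp14, −0.41 to 0.080 for Epsti1, −0.14 to 0.73 for Rsad2, −0.10 to 0.68 for Usp18, −0.31 to 0.19 for Tor3a and −0.060 to 0.40 for Xaf1. None of these passed in any fit. Precision is limited by 2 arrays per group.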
